A study of Mus musculus with 8 samples.

Results

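Wnt pathway genes were examined in the whole cortex of 8 mice. Of the 22000 rows of the count table, 59 carry the name of a Wnt ligand, a Frizzled (Fzd) receptor, an R-spondin (Rspo), an Lgr receptor, a Dkk or Sfrp inhibitor or a Dishevelled (Dvl) gene, or belong to a short list of further components (Lrp5, Lrp6, Axin1, Axin2, Ctnnb1, Apc, Gsk3b, Tcf7l2, Lef1, Znrf3, Rnf43 and Ankrd6). The 48 of them with 10 or more reads in 4 or more libraries are the members described here. All libraries came from mice labelled either heterozygous for Mef2c, which codes for a transcription factor, or wild type, with 4 mice of each label, 2 males and 2 females, and 1 library of polyadenylated RNA per mouse. Age, strain and the part of Mef2c that was altered are not given in the labels, so what the heterozygous allele still makes is not known here. The study's design asks how cortical expression differs between these genotypes.

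Wnt proteins are secreted ligands that bind Frizzled receptors together with the co-receptors Lrp5 or Lrp6. Without a ligand, a complex of Axin, Apc and the kinase Gsk3b marks beta-catenin (Ctnnb1) for destruction, and with it Dishevelled relays the signal, beta-catenin builds up and acts in the nucleus with Tcf7l2 and Lef1. R-spondins strengthen the signal: bound to Lgr4, Lgr5 or Lgr6, they remove the ubiquitin ligases Znrf3 and Rnf43, which otherwise clear Frizzled receptors from the cell surface. Dkk and Sfrp proteins are secreted and mostly dampen it. In the brain the pathway is known for its part in patterning the cortex, in the growth of axons and synapses and in the formation of the blood-brain barrier.

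Total counts lay between 16092773 and 17841377 reads per library, and the members together took between 0.231% and 0.251% of them. Mef2c itself was not lower in the libraries labelled heterozygous: replicates 1 to 4 had 1233, 1336, 1391 and 1255 CPM (read counts scaled by the size of the library), against 1038, 939, 999 and 1003 CPM in replicates 1 to 4 labelled wild type. The 4 libraries labelled heterozygous were all above the others (log2 fold change 0.39 ± 0.05 SE, adjusted p = 0.000154 in edgeR's quasi-likelihood test). Every direction below therefore refers to the libraries as labelled. Heterozygous replicate 4, labelled female, held 72 reads of 4 Y-linked genes, between the 0 to 3 reads of the other females and the 2150 to 2564 reads of the males. The cortical neuron markers Slc17a7 (1776 to 2030 CPM) and Camk2a (4276 to 4993 CPM) were present in every library.

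In the libraries labelled heterozygous, the R-spondin gene Rspo1 fell 1.98-fold below those labelled wild type, and Ankrd6, whose product diversin binds components of the destruction complex and Dishevelled, fell 1.30-fold. No member rose past the threshold in this fit. The other 46 members, among them all 12 Wnt ligands, all 12 receptors and co-receptors and all 5 genes of the destruction complex and beta-catenin, did not pass it. Over all 48 the median log2 fold change was 0.01, with 26 above 0 and 22 below, beside a median of -0.001 over all 13879 genes tested. A gene was called at a Benjamini-Hochberg adjusted p under 0.05, over all genes tested, in edgeR's quasi-likelihood F-test with sex as a term. Of all genes tested, 0.267% were called, 0.137% lower and 0.13% higher, against 2 lower and 0 higher among the members. Each label has 1 mouse of each sex in each of 2 runs of animal numbers in the sample titles. A fit with these 4 blocks, added after the data were seen, called 0.893% of all genes and 5 members, with Rspo2, Wnt7b and Dkk3 higher beside the same 2 lower. Rspo1 and Ankrd6 were known to be called when the members were put together, so their count says nothing about the pathway as a whole. In tissue RNA, fewer cells of a type and less RNA per cell cannot be told apart. The effects of all 48 members with their errors are drawn by role in the plot of log2 fold changes.

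**Figure D1:**
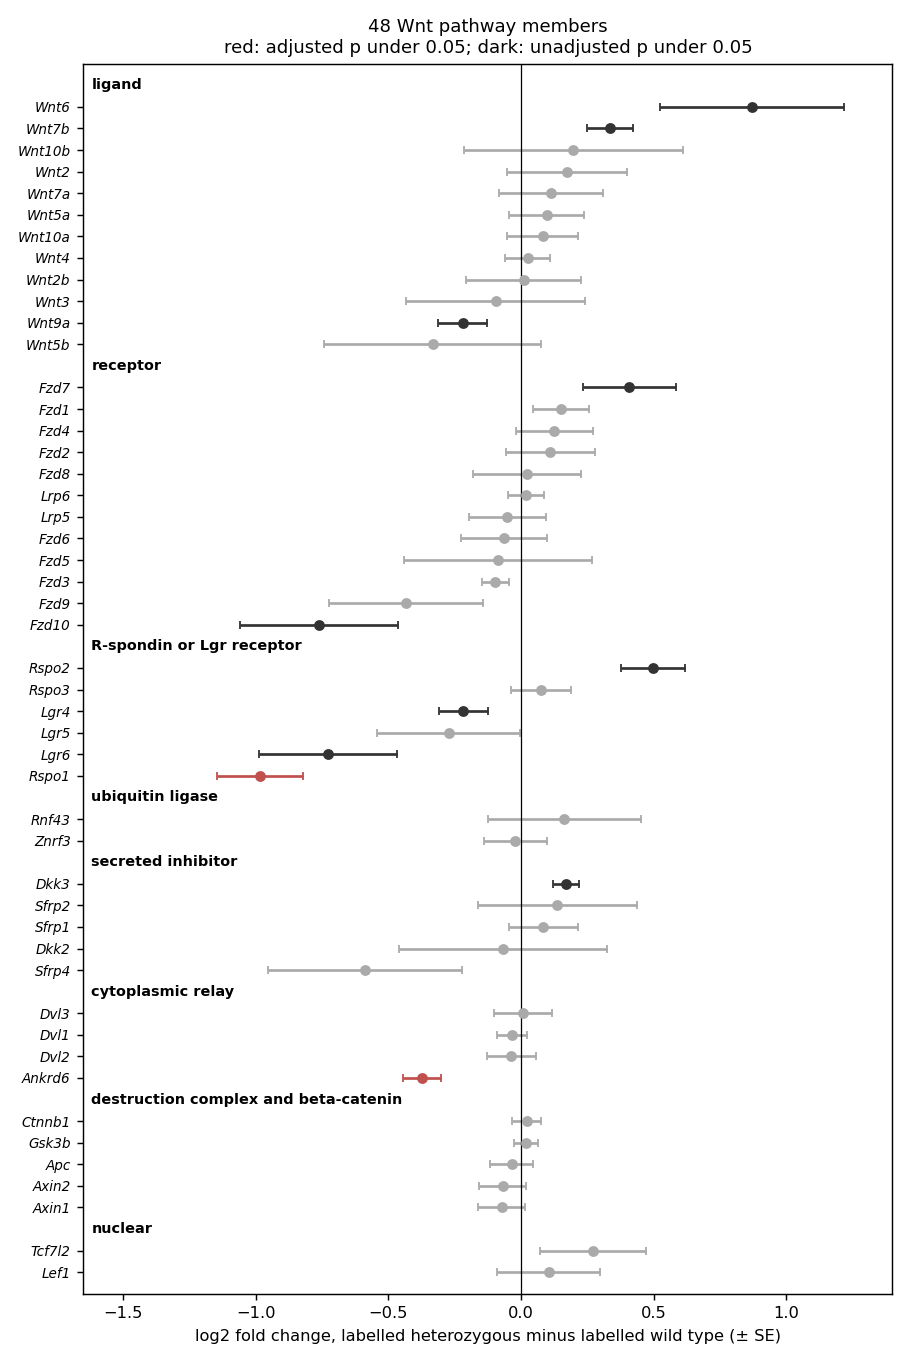
Log2 fold change of the 48 members, libraries labelled heterozygous minus those labelled wild type, with the standard error as bars, grouped by role. Rspo1 (-0.98) and Ankrd6 (-0.38) are the 2 called genes, and the 5 genes of the destruction complex and beta-catenin lie between -0.07 and 0.02.

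The sequences before the starts of the 2 called genes are shown because MEF2C binds DNA at a known motif and both genes moved in the same direction. Both lie on chromosome 4 of the mouse build GRCm38, Rspo1 (ENSMUSG00000028871.7, protein coding) on the plus strand from 124986430 to 125009099 and Ankrd6 (ENSMUSG00000040183.13, protein coding) on the minus strand from 32804035 to 32950841. The letters are the 250 bases before the start of the RefSeq transcript in GRCm38.p6, written in the direction of transcription, for Rspo1 chr4:124986180-124986429 on the plus strand and for the most upstream of 3 starts of Ankrd6 chr4:32950827-32951076 on the minus strand. The gene bounds are those of GENCODE M21, and the Ankrd6 window, set by RefSeq, reaches a short way into them. Capitals mark a GC box (GGGCGG or CCGCCC), a common promoter element.
Rspo1: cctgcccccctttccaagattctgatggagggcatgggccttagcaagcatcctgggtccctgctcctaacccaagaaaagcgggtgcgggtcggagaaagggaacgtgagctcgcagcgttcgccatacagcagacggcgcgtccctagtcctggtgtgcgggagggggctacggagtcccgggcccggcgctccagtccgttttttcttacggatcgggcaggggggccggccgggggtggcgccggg
Ankrd6: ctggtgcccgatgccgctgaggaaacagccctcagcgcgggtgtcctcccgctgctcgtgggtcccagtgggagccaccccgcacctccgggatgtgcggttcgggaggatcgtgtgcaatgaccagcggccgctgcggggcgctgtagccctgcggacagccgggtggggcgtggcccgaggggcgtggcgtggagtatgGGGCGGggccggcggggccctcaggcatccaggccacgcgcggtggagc
Both stretches are rich in G and C, 66.8% in Rspo1 and 74.4% in Ankrd6. The MEF2 motif was searched as CTA, then 4 bases that are each A or T, then TAG (a pattern that covers both strands). Looser forms of the motif were not searched. This form was found in neither stretch, nor in any of the 40 windows of the 30 members that the RefSeq promoter table holds. Only 0.508% of all 32851 windows of the same length hold it, so its absence from 40 windows does not set the members apart. A core of the TCF and LEF motif, CTTTGAT or, for the other strand, ATCAAAG, was likewise absent from both and was found in 1 of the 40 member windows, that of Wnt5b, and in 3.21% of all windows. GC boxes were found in 67.5% of the member windows and 32.7% of all windows, once in the Ankrd6 window and not in that of Rspo1. All windows together cover 27025 genes, detected in these libraries or not, so the shares come from unlike sets of genes. These matches describe letters in short windows. They do not show binding, and the absence of a match says nothing of more distant elements.

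The R-spondins and their Lgr receptors held the largest change. Rspo1, itself a secreted protein, acts from outside the cell by binding Lgr receptors. Its level was 13.3, 9.10, 9.85 and 10.8 CPM in wild type replicates 1 to 4 and 6.58, 6.03, 4.72 and 4.37 CPM in heterozygous replicates 1 to 4, from between 76 and 229 reads per library. The highest library labelled heterozygous was below the lowest labelled wild type. The heterozygous label averaged 5.42 ± 1.05 CPM and the wild type label 10.8 ± 1.84 CPM (SD, n = 4 each). In edgeR's test the log2 fold change came to -0.98 ± 0.16 (SE, adjusted p = 0.00462). A two-sided exact permutation of the labels gave 0.0286, which is the lowest p possible for 4 against 4. Every gene without overlap gets this value. Rspo1 stayed called in each of 18 other settings run on it with both sexes and both runs of animals (log2 fold changes of -1.14 to -0.85, adjusted p up to 0.0352), including the fits without each library in turn. It was -0.74 in males alone and -1.22 in females alone, where it did not pass with 2 mice per label (adjusted p = 0.69 and 0.068), and the difference between the sexes was 0.47 ± 0.32 (SE), with an unadjusted p of 0.156 for the interaction.

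Rspo2, a second R-spondin, had the opposite sign. It stood at 11.3, 14.0, 18.4 and 13.6 CPM in wild type replicates 1 to 4 and at 20.7, 22.0, 18.9 and 19.0 CPM in heterozygous replicates 1 to 4. The genotypes did not overlap, but wild type replicate 3 came within 1 CPM of the lowest library labelled heterozygous. Its log2 fold change, 0.50 ± 0.12 (SE), missed the threshold at an adjusted p of 0.088. It passed without wild type replicate 3 (0.63, adjusted p = 0.023), in the DESeq2 Wald test (adjusted p = 0.0405), with no filter on low counts (adjusted p = 0.0204) and with the 4 blocks of sex and run (adjusted p = 0.0425). Rspo3, the third R-spondin, had 17.2 and 16.3 CPM in the means of the libraries labelled heterozygous and wild type, with a log2 fold change of 0.07 ± 0.11 (SE).

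Divided by exon length, which allows genes to be compared, the 3 R-spondins changed their order between the labels. This order and the shares below depend on the exon lengths used. In CPM without the division, Rspo1 had the lowest mean of the 3 in both labels. For Rspo1, Rspo2 and Rspo3 these means were 10.8, 14.3 and 16.3 CPM in the wild type label. In the heterozygous label they were 5.42, 20.1 and 17.2 CPM. Per length, Rspo1 had 5.56 ± 0.95 CPM per kb, Rspo2 2.81 ± 0.576 and Rspo3 5.29 ± 0.532 (SD, n = 4) in the wild type label. The heterozygous label had 2.80 ± 0.542, 3.94 ± 0.288 and 5.58 ± 0.723 CPM per kb (SD, n = 4). Rspo1 had the lowest mean per length of the 3 in the heterozygous label. In the wild type label its mean per length was the highest, but it exceeded that of Rspo3 by less than their SDs. It made up 36.5% to 45.6% of the summed R-spondin level in the libraries labelled wild type and 19.2% to 27.0% in those labelled heterozygous. The sum of the 3 ran from 12.9 to 15.1 CPM per kb in the wild type label and from 11.6 to 12.7 CPM per kb in the heterozygous label, so the groups were apart by a narrow gap. These sums were formed after the single genes had been seen and are given as a description.

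**Figure D2:**
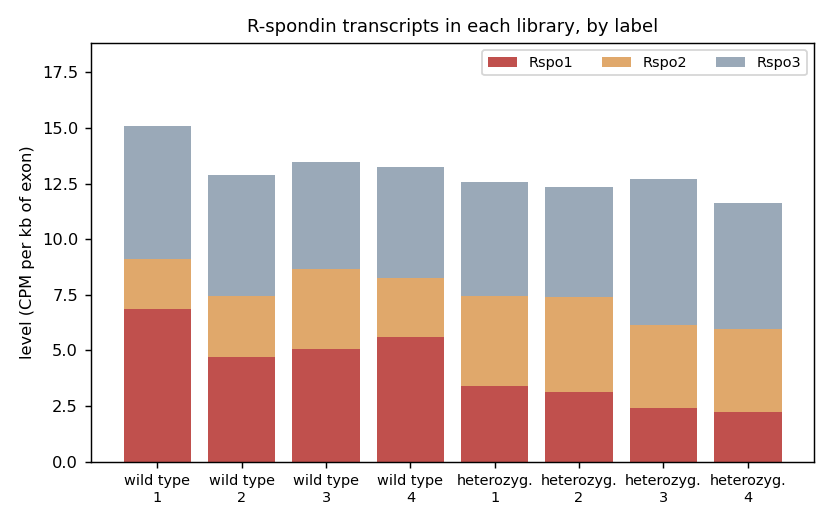
Level of Rspo1, Rspo2 and Rspo3 in each library in CPM per kb of exon, stacked, with the 4 libraries labelled wild type on the left and the 4 labelled heterozygous on the right. Rspo1 fills 36.5% to 45.6% of the bar on the left and 19.2% to 27.0% on the right, while the full bars run from 12.9 to 15.1 and from 11.6 to 12.7 CPM per kb.

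None of the Lgr receptors, which bind the R-spondins, passed the test, and all 3 had a log2 fold change below 0. Lgr4, by far the most abundant of them per length, had 32.8, 34.4, 27.2 and 36.4 CPM in wild type replicates 1 to 4 and 29.1, 31.1, 23.9 and 28.2 CPM in heterozygous replicates 1 to 4. These ranges overlapped, with a log2 fold change of -0.22 ± 0.09 (SE) and an adjusted p of 0.57. Lgr6 had 7.62, 4.55, 4.07 and 4.24 CPM in wild type replicates 1 to 4 and 4.09, 2.09, 3.98 and 2.41 CPM in heterozygous replicates 1 to 4. Wild type replicate 1, 1 of the 2 wild type females, was high, and both heterozygous females (replicates 2 and 4) were low. The values by sex that follow rest in part on that wild type library. Lgr6 had a log2 fold change of -0.73 ± 0.26 (SE, adjusted p = 0.422), -1.40 in females alone and -0.10 in males alone. The difference between the sexes was 1.30 ± 0.44 (SE) with an unadjusted p of 0.00754, which did not pass after adjustment. Lgr5, a marker of Wnt-responsive stem cells in other tissues, had 2.36 against 2.80 CPM. Summed per length, the Lgr receptors had 4.97 to 5.79 CPM per kb in the heterozygous label and 5.45 to 7.07 CPM per kb in the wild type label, which overlap. Of the ubiquitin ligases that R-spondins act on, Znrf3 had 14.3 against 14.5 CPM and Rnf43 2.84 against 2.59 CPM (means, heterozygous against wild type label), with log2 fold changes of -0.02 ± 0.12 and 0.16 ± 0.29 (SE).

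Ankrd6 was the called member inside the cell. Its level was 44.2, 49.6, 47.4 and 42.4 CPM in wild type replicates 1 to 4 and 34.4, 36.0, 35.7 and 35.4 CPM in heterozygous replicates 1 to 4. The groups did not overlap, and the libraries labelled heterozygous lay within 2 CPM of each other. The heterozygous label averaged 35.4 ± 0.701 CPM and the wild type label 45.9 ± 3.22 CPM (SD, n = 4 each). Its log2 fold change of -0.38 ± 0.07 (SE) passed edgeR's test (adjusted p = 0.0185). The exact permutation p was 0.0286, which every gene without overlap gets here, so it adds nothing to the lack of overlap. The call was lost when heterozygous replicate 3 was left out (adjusted p = 0.0554), and likewise for wild type replicates 1, 2 and 3 (adjusted p = 0.0562, 0.104 and 0.0528), while the log2 fold change stayed between -0.40 and -0.34 over the 18 settings. It was -0.47 in males alone and -0.28 in females alone. The Dishevelled genes Dvl1, Dvl2 and Dvl3 had log2 fold changes of -0.03, -0.04 and 0.01. Summed per length, the 3 ran from 30.6 to 33.7 CPM per kb in the heterozygous label and from 31.4 to 33.2 CPM per kb in the wild type label.

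**Figure D3:**
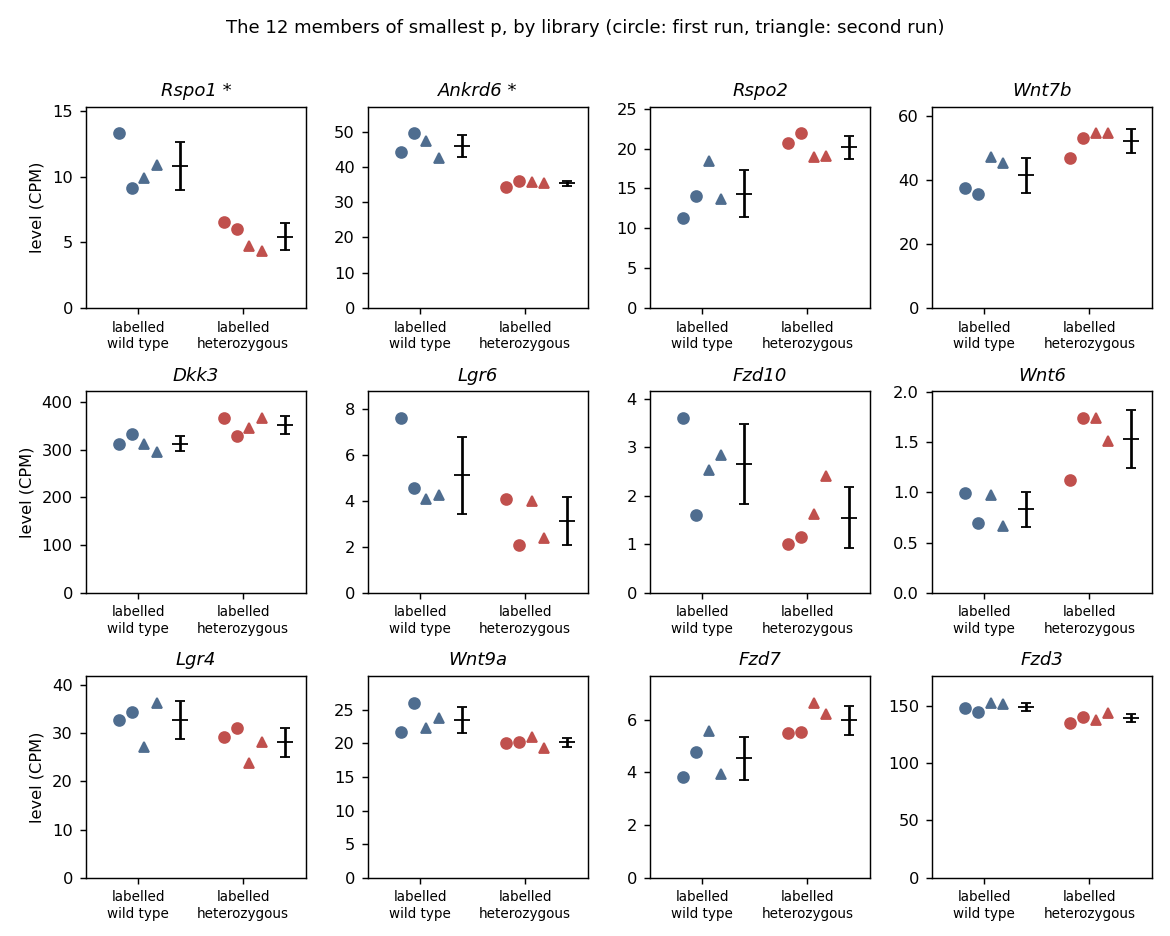
Level in CPM of the 12 members with the smallest p, with 1 point per library (circles for the first run of animal numbers, triangles for the second), and the mean ± SD of 4 beside them. An asterisk marks the 2 called genes. The libraries labelled heterozygous lie below all those labelled wild type for Rspo1, Ankrd6, Wnt9a and Fzd3 and above them for Rspo2 and Wnt6.

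Among the 12 Wnt ligands none was called, and 9 had a log2 fold change above 0, with a median of 0.09. Wnt7b, the most abundant ligand per length (9.57 CPM per kb over all libraries) and one of the ligands that brain vessels depend on, had 37.6, 35.8, 47.1 and 45.2 CPM in wild type replicates 1 to 4 and 46.8, 53.0, 54.7 and 54.7 CPM in heterozygous replicates 1 to 4. The ranges overlapped by the single pair of wild type replicate 3 and heterozygous replicate 1. Its log2 fold change of 0.34 ± 0.09 (SE) missed the threshold (adjusted p = 0.13). The titles do not say what the 2 runs of animal numbers stand for. Wnt7b had a difference (adjusted p = 0.18) between these 2 runs, by 0.23 ± 0.07 (SE) in the second against the first. With the run as a further term the genotype difference of Wnt7b passed (0.34, adjusted p = 0.0183), and with the 4 blocks too (0.34, adjusted p = 0.00996). It also passed without wild type replicate 3 (0.43, adjusted p = 0.0266) and with no filter on low counts (0.34, adjusted p = 0.0401). Its close relative Wnt7a had 7.65 against 7.04 CPM.

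Wnt6 and Wnt9a did not overlap between the labels. Wnt6 rested on 11 to 30 reads per library, with 0.989, 0.691, 0.974 and 0.667 CPM in wild type replicates 1 to 4 and 1.13, 1.74, 1.74 and 1.51 CPM in heterozygous replicates 1 to 4. Its log2 fold change of 0.87 ± 0.35 (SE) had an adjusted p of 0.524. Wnt9a went the other way, with 21.7, 26.1, 22.2 and 23.8 CPM in wild type replicates 1 to 4 and 20.1, 20.2, 20.9 and 19.3 CPM in heterozygous replicates 1 to 4 (log2 fold change -0.22 ± 0.09 SE, adjusted p = 0.57). Wnt4, the second ligand by level per length, had 33.4 against 32.8 CPM, a log2 fold change of 0.02 ± 0.09 (SE). The other 7 ligands, Wnt2, Wnt2b, Wnt3, Wnt5a, Wnt5b, Wnt10a and Wnt10b, had log2 fold changes of -0.33 to 0.20. All ligands summed per length gave 35.9 to 37.4 CPM per kb in the heterozygous label and 32.4 to 36.4 CPM per kb in the wild type label, which overlap.

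**Figure D4:**
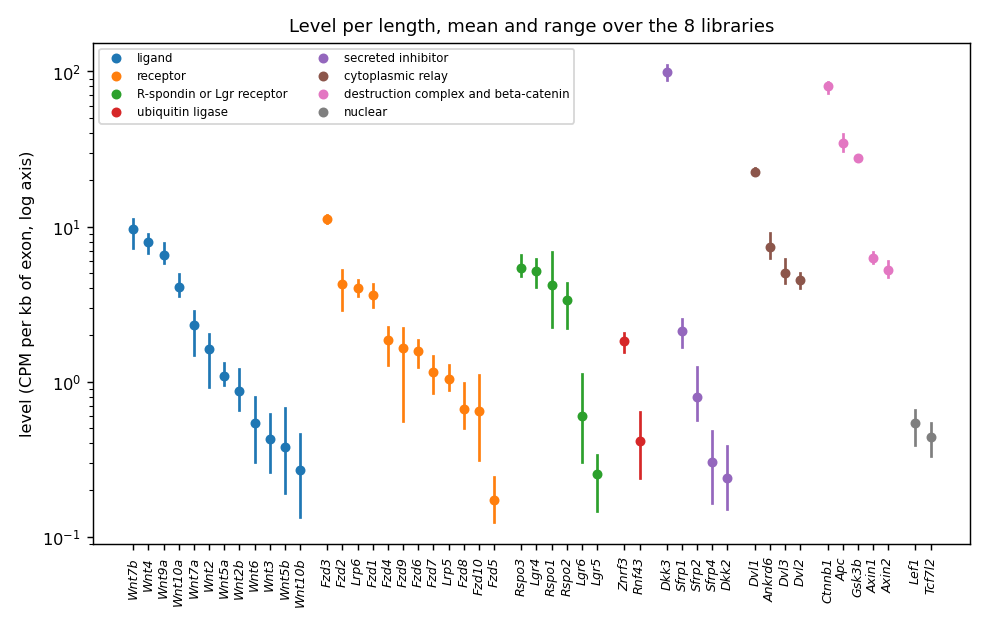
Level of each member in CPM per kb of exon on a log axis, as the mean (point) and range (line) over the 8 libraries, grouped by role. Dkk3 and Ctnnb1 are the highest, at 99.0 and 80.4 CPM per kb, and Fzd5 the lowest, at 0.173 CPM per kb.

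The 12 receptors and co-receptors had a median log2 fold change of -0.02, 6 above and 6 below 0. Fzd3, the most abundant Frizzled per length (11.3 CPM per kb) and a receptor needed for axon tracts of the forebrain, had 148, 144, 153 and 151 CPM in wild type replicates 1 to 4 and 135, 140, 138 and 144 CPM in heterozygous replicates 1 to 4. The labels did not overlap, by a gap of under 1 CPM, and the log2 fold change of -0.10 ± 0.05 (SE) had an adjusted p of 0.741. Fzd10, at 17 to 62 reads per library, had 3.61, 1.61, 2.52 and 2.85 CPM in wild type replicates 1 to 4 and 1.01, 1.16, 1.62 and 2.41 CPM in heterozygous replicates 1 to 4. These overlapped, with a log2 fold change of -0.76 ± 0.30 (SE, adjusted p = 0.512). Fzd7 had 3.84, 4.78, 5.56 and 3.94 CPM in wild type replicates 1 to 4 and 5.51, 5.51, 6.65 and 6.21 CPM in heterozygous replicates 1 to 4, overlapping at wild type replicate 3 (log2 fold change 0.41 ± 0.18 SE, adjusted p = 0.575). The co-receptors Lrp5 and Lrp6 had log2 fold changes of -0.05 ± 0.14 and 0.02 ± 0.07 (SE). Fzd4, the receptor through which Wnt signals and norrin act on vessels, had 13.0 against 11.9 CPM (0.13 ± 0.14 SE). The remaining Frizzleds, Fzd1, Fzd2, Fzd5, Fzd6, Fzd8 and Fzd9, had values between -0.43 and 0.15. Fzd receptors summed per length ran from 24.1 to 29.1 CPM per kb in the heterozygous label and from 25.8 to 27.8 CPM per kb in the wild type label.

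Of the secreted inhibitors, Dkk3 was the most abundant member of all per length, at 99.0 CPM per kb. Dkk3, a Dickkopf relative of neurons whose effect on Wnt signalling is less clear than that of Dkk1, had 312, 332, 312 and 295 CPM in wild type replicates 1 to 4 and 367, 329, 346 and 365 CPM in heterozygous replicates 1 to 4. Heterozygous replicate 2 lay just under wild type replicate 2, and the other libraries were apart. Dkk3 had a log2 fold change of 0.17 ± 0.05 (SE, adjusted p = 0.19), which passed narrowly with the 4 blocks (0.17, adjusted p = 0.0499). Sfrp1, Sfrp2, Sfrp4 and Dkk2 had log2 fold changes of 0.08, 0.14, -0.59 and -0.07, the last 3 of them at means of 2 CPM or less. All 5 inhibitors summed per length gave 101.5 to 112.6 CPM per kb in the heterozygous label and 91.4 to 102.4 CPM per kb in the wild type label, which overlap.

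The genes of the destruction complex and beta-catenin differed little, and neither nuclear gene was called. Ctnnb1, the beta-catenin gene and the second most abundant member per length at 80.4 CPM per kb, had a mean of 421 against 415 CPM (heterozygous against wild type label), a log2 fold change of 0.02 ± 0.05 (SE). Gsk3b had 273 against 270 CPM and Apc 547 against 561 CPM. Axin1 and Axin2 had log2 fold changes of -0.07 ± 0.09 and -0.07 ± 0.09 (SE). Axin2, which beta-catenin signalling induces and which is widely used as its readout, had 28.0 against 29.4 CPM. Lef1 and Tcf7l2, partners of beta-catenin on DNA, had 4.91 against 4.55 CPM and 4.22 against 3.52 CPM, with log2 fold changes of 0.10 ± 0.19 and 0.27 ± 0.20 (SE).

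Counting beyond the called genes, 11 of the 48 members (22.9%) had an unadjusted p under 0.05, 5 higher and 6 lower, where 7.24% of all tested genes did. Genotypes without overlap were found for 6 members (12.5%), Rspo1, Ankrd6, Rspo2, Wnt6, Wnt9a and Fzd3, and for 4.55% of all tested genes. Of the 6 R-spondins and Lgr receptors, 4 had an unadjusted p under 0.05, and of the 5 genes of the destruction complex and beta-catenin 0 did. The members were put together with such results known, so these shares describe the list and test nothing. By sex, 3 members (Fzd8, Sfrp1 and Lrp6) had an unadjusted p under 0.05, where 2.92% of all genes did. Of the members 0 were called by sex, and of all 13879 genes tested 4 were. The interaction of label and sex gave 0 called genes over all genes in edgeR's test and 0 over all genes in the DESeq2 Wald test, and Lgr6 was the 1 member with an unadjusted p under 0.05, where 2.64% of all genes had one.

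The 2 runs of animal numbers were compared in the same way. Of all genes, 0.382% were called between the runs and 10.2% had an unadjusted p under 0.05. Among the members 0 were called and 5 had an unadjusted p under 0.05, Fzd2, Wnt7b, Wnt7a, Fzd6 and Wnt5b. Fzd2 had 16.3, 10.6, 13.5 and 12.6 CPM in heterozygous replicates 1 and 2 and wild type replicates 1 and 2, which form the first run. In the second run it had 18.3, 19.1, 18.4 and 15.0 CPM in heterozygous replicates 3 and 4 and wild type replicates 3 and 4. All but 1 library of the second run lay above all of the first, a log2 difference of 0.42 ± 0.12 (SE, adjusted p = 0.131). Within the first and the second run, the label difference of Rspo1 was -0.81 and -1.19, that of Ankrd6 -0.41 and -0.33, that of Rspo2 0.76 and 0.25, and that of Wnt7b 0.44 and 0.25 on the log2 scale.

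**Figure D5:**
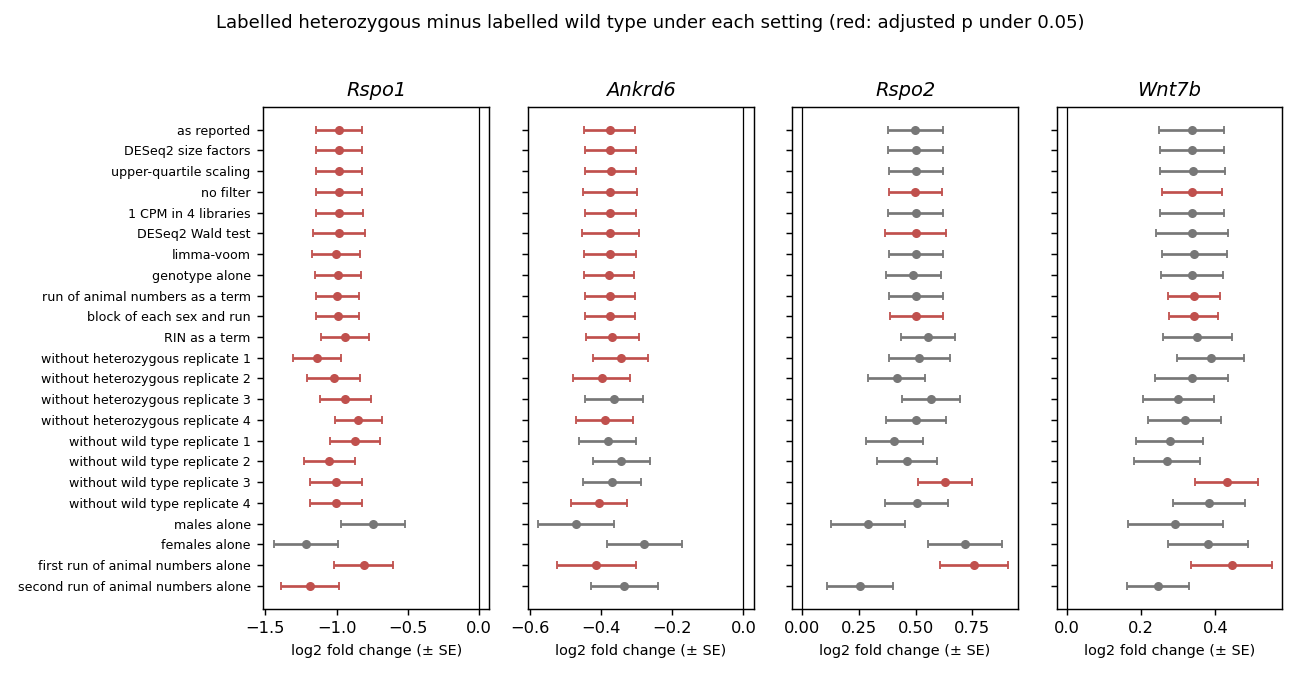
Log2 fold change with its standard error for Rspo1, Ankrd6, Rspo2 and Wnt7b as reported and under each other setting, with red for an adjusted p under 0.05 and a separate horizontal scale in each panel. The values of Rspo1 lie between -1.22 and -0.74, and the 4 genes keep their sign throughout.

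The other genes of the pathway were taken from a list of secretion factors, further receptors, cytoplasmic, polarity and nuclear components and common targets. Of 64 such genes that are not members, 0 were called in either direction, with a median log2 fold change of 0.02, 34 above and 30 below 0. An unadjusted p under 0.05 was found for 7 (10.9%), beside 7.24% of all tested genes. No overlap was found for 5 (7.81%), beside 4.55% of all tested genes: Tnfrsf19, Ctnnbip1, Celsr2, Kremen1 and Wif1. Wif1 had 0.592 to 0.994 CPM in the heterozygous label and 1.03 to 1.39 CPM in the wild type label. Its log2 fold change was -0.66 ± 0.36 (SE, adjusted p = 0.755 in edgeR's test). Tnfrsf19, a receptor gene often listed as a Wnt target, had 65.3 ± 1.28 CPM in the heterozygous label and 75.7 ± 4.25 CPM in the wild type label (SD, n = 4 each) without overlap, and its log2 fold change of -0.21 ± 0.06 (SE) did not pass edgeR's test (adjusted p = 0.185). Ctnnbip1, whose product keeps beta-catenin from its DNA-binding partners, had 37.7 to 41.6 against 45.7 to 49.8 CPM (-0.24 ± 0.07 SE, adjusted p = 0.19). Celsr2, a cadherin of planar polarity, had 315 to 325 against 263 to 305 CPM (0.17 ± 0.05 SE, adjusted p = 0.218), and passed with the 4 blocks (0.18, adjusted p = 0.04). Kremen1, a receptor for Dkk proteins, had 0.26, Gpc4, a glypican, 0.32, Cthrc1 -0.35 and Frzb, an Sfrp relative, -0.18. The smallest p among the further receptors was that of Tspan12, a partner of Fzd4 (-0.13), and among the cytoplasmic genes that of Cby1, a beta-catenin antagonist (-0.12), neither past an unadjusted 0.05. Of the 12 tested common targets, which include the members Axin2, Lef1, Lgr5, Rnf43 and Znrf3, 0 were called and the median was -0.03. The targets Ccnd1 and Myc had 58.0 against 59.0 CPM and 4.35 against 4.15 CPM.

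Markers of cell types and brain regions were measured in the same libraries. Rspo1 is itself listed as a marker of layer 2 to 4 excitatory neurons. The other 9 markers of that list summed to 1093 to 1123 CPM in the heterozygous label and 1147 to 1207 CPM in the wild type label, without overlap. Of these 9, 1 was called higher (Wfs1) and 1 lower (Rasgrf2), with 4 log2 fold changes above 0 and 5 below. An unadjusted p under 0.05 in edgeR's test was found for 3 in the higher and 4 in the lower direction. The labels did not overlap for 6 (Wfs1 and Mdga1 higher, Rasgrf2, Lamp5, Cux1 and Cux2 lower), beside 4.55% of all tested genes. The median log2 fold change of the 9 was -0.12, beside -0.98 for Rspo1. The thalamus list without Tcf7l2 and Lef1 summed to 186 to 193 against 197 to 208 CPM, also without overlap. Of its 8 tested genes 1 was called lower (Ramp3). Their log2 fold changes had a median of -0.05, with 3 above 0 and 5 below. An unadjusted p under 0.05 was found for 1 in the higher direction (Calb2, 0.50) and 2 in the lower (Ramp3 and Ntng1). The listed Gbx2, too low to be tested, had 0 or 1 read, while Slc17a6 had 425 to 587. Layer 5 and 6 markers (369 to 381 against 358 to 409 CPM) and endothelial markers (161 to 245 against 160 to 228 CPM) overlapped, with 0 called. So did hippocampal markers (79.5 to 89.1 against 88.9 to 103 CPM), of which 1 of 7 was called higher (Fibcd1, log2 fold change 0.77) and Npnt (-0.70, adjusted p = 0.069) and Trpc6 (-0.34) had an unadjusted p under 0.05 in the other direction. Overlap was also seen for microglial markers (259 to 292 against 246 to 265 CPM), of which 0 of 6 were called. Of these 6, 5 had a log2 fold change above 0 and 1 below. An unadjusted p under 0.05 was found for 3 of them, all higher, and 2 did not overlap between the labels. All 8 striatal markers had a log2 fold change above 0 (median 0.21), with sums of 340 to 482 against 356 to 401 CPM and 0 called. Choroid plexus markers summed to at most 6.67 CPM in any library over the 4 tested. The part of these markers in the Wnt results was not tested.

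The remaining 11 rows that the name rule gives were too low to be members: Dkk1, Dkk4, Rspo4, Sfrp5, Wnt1, Wnt3a, Wnt8a, Wnt8b, Wnt9b, Wnt11 and Wnt16. Dkk1 and Wnt8a had 0 reads in all 8 libraries. The highest were Wnt16 with 4 to 13 reads per library, Sfrp5 with 0 to 10 and Wnt1 with 0 to 10, each reaching 10 reads in 1 library. Just above the threshold were Dkk2 with 10 to 24 reads, Wnt10b with 8 to 25 and Wnt5b with 9 to 31. With no filter on low counts, Wnt1 was the 1 row of the 11 too low to be members with an unadjusted p under 0.05 in edgeR's test. Its reads per library ran from 0 to 4 under the heterozygous label and from 4 to 10 under the wild type label. A level this low was measured with wide counting error, and counts of this size are too few for a firm reading of a difference between the labels.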

How the data were processed

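Whole-cortex polyadenylated RNA of 8 mice was sequenced, 4 per genotype label. The deposited values are raw counts, 1 row per gene symbol. The submitters' processing notes name STAR 2.5.2b, HTSeq and the build mm10. Which annotation and strand setting were used is not given in the sources used here, so reads of antisense partners cannot be told apart. Exons of 11 members, Ctnnb1, Dvl2 and Wnt7b among them, share bases with a gene on the opposite strand. Nothing says whether the mice shared litters.

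From the counts, genes were kept with filterByExpr (minimum count 10), which left 13879 genes, all 48 members included. They were scaled by TMM and tested with edgeR 4.0.16 in R 4.3.3 (quasi-likelihood F-test, robust, sex and genotype as terms), with Benjamini-Hochberg adjustment across all genes. Permutation tests used log2(CPM + 0.5). The SE given for an edgeR fit is the absolute log2 fold change divided by the square root of its F statistic. CPM per kb uses the exon length of GENCODE M21 (GRCm38), which may differ from the authors' annotation. The pipeline was tested on simulated data. Alternatives used DESeq2 1.42.0 and limma 3.58.1. Replicate pairs differed by more than sampling noise (chi-square per degree of freedom of at least 4.14). Members, lists and tests were chosen with earlier results of these data known. Genes named are all members called, without overlap or with an unadjusted p under 0.05, and the highest of each role, and likewise, by p, for other pathway genes. Some further members, other pathway genes and markers are named outside this rule.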

Additional observations from a re-analysis of the deposited data

Results flagged for a closer look

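Each member's 4 libraries of a label were screened for 1 library far from the other 3, by the ratio of its gap to the range. Of 96 such groups 2 exceeded the 95% critical value, and chance flags about 1 in 20. Wild type replicate 1 was high in Lgr6, at 7.62 CPM with the next library at 4.55 CPM, a ratio of 0.864. Heterozygous replicate 2 was low in Wnt7a, at 4.70 CPM with the next library at 8.45 CPM, a ratio of 0.883.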

How the results depend on the processing

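The 37 genes called over the whole table became 82 with no filter on low counts, 80 with the DESeq2 Wald test, 72 with the run of animal numbers as a term, 124 with the 4 blocks of sex and run (an alternative added after the data were seen) and 72 at an adjusted p under 0.1, and 19 to 80 with each library left out in turn (80 without heterozygous replicate 1, 24 without heterozygous replicate 2, 23 and 19 without wild type replicates 1 and 2). The 2 called members became 4 with no filter (Rspo2 and Wnt7b added), 5 with the 4 blocks (Dkk3 added too) and 1 to 3 with each library left out (1 when any of heterozygous replicate 3 and the first 2 wild type replicates was dropped, and 3 without wild type replicate 3, where Ankrd6 was lost and Rspo2 and Wnt7b were added). Of 27 named genes, 23 kept their direction in every setting run. The exceptions all had log2 fold changes near 0. Ctnnb1 was -0.062 in males alone, -0.048 in the second run alone and -0.030 to 0.064 with libraries left out. Lef1 was -0.063 in females alone and -0.039 in the second run alone. Rspo3 was -0.043 in females alone, -0.18 in the first run alone and -0.022 to 0.16 with libraries left out. Znrf3 was 0.12 in males alone and -0.10 to 0.059 with libraries left out. The cause of these shifts was not tested. Scaling by DESeq2 size factors or upper quartile changed no member's call. With the RNA integrity number of each library as a term, 25 genes were called over the whole table, Rspo1 and Ankrd6 among them. The median log2 fold change of the members was then -0.02. At 1 CPM in 4 libraries Dkk2 and Wnt10b were not tested. The blocks match mice by sex and run only, since the labels give no replicate numbers. Members under about 30 reads per library, such as Wnt6, are limited by counting error.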
